A study of Homo sapiens with 9 samples.

Results

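The genes described here lie together in 17p13, the band at the end of the short arm of chromosome 17. A list of 60 genes was followed, and each gene was read from the probe with the highest mean log2 intensity among the probes annotated to it under its current or an older symbol. Of the 60, 57 were measured among 18832 genes on the arrays, and CRK, INPP5K and ARRB2 had no probe named for them in the annotation used. The list was drawn up with the differences between these cell lines already known, so the values of its members in the comparisons are a description and are not offered as support for a regional change. The genes of 17p13 outside the list, and the rest of the short arm, were measured on the same arrays and are given beside it. The region was taken up with the same results known, so their values are a description as well.

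Total RNA of 3 human ovarian carcinoma lines of 1 origin was measured on Illumina bead arrays, on which a biotinylated copy of the RNA binds to probes on beads and the brightness of each probe is read. IGROV-1/OHP (OHP) is a variant of IGROV-1 that its sample labels call oxaliplatin-resistant, whereas the text of the series gives cisplatin as the drug used to obtain it. IGROV-1/Pt1 (Pt1) was raised by exposing IGROV-1 to cisplatin, and the parental line is the cisplatin-sensitive IGROV-1 from which both variants came. Each line has 3 arrays, described as biological replicates, and each resistant variant is a single line, so the arrays measure the spread within a line and not among independently selected lines. In these bulk samples, fewer cells with a transcript and less of it per cell cannot be told apart.

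Genes of 17p13 are neighbours on the chromosome without sharing a task. They include the dynein regulators PAFAH1B1 (LIS1) and NDEL1, the adaptor YWHAE (14-3-3 epsilon), the splicing factor PRPF8, the largest subunit of RNA polymerase II (POLR2A) and the transcriptional repressor HIC1. Loss of the stretch from YWHAE to PAFAH1B1 in the germ line causes the brain malformation lissencephaly, and the short arm of chromosome 17 is known as a frequent site of allelic loss in ovarian carcinoma. Copy number was not measured in these samples.

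Upstream sequences from RefSeq (GRCh38.p14) were available for 51 of the 60 genes. Shown here are the stretch between the starts of DERL2 and MIS12, which face away from each other and were both lower in OHP, and the 250 bases upstream of MPDU1 and of DVL2, the 2 members with the smallest adjusted p in that comparison. They lie at chr17:5486179-5486373 (plus strand), chr17:7583397-7583646 (plus strand) and chr17:7234518-7234767 (minus strand). Capitals mark, on either strand, the GC box (GGGCGG), the CCAAT box, the TATA box (TATAAA) and the E-box (CACGTG), whose matches did not overlap each other here.
DERL2/MIS12: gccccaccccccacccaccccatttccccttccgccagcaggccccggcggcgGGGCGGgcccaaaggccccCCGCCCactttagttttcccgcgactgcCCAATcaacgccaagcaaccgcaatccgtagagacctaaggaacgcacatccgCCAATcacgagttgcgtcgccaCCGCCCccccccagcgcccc
MPDU1: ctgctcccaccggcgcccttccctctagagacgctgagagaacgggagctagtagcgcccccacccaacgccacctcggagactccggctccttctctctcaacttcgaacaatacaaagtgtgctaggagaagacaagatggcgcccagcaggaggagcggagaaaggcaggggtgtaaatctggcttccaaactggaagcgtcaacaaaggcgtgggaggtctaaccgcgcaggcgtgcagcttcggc
DVL2: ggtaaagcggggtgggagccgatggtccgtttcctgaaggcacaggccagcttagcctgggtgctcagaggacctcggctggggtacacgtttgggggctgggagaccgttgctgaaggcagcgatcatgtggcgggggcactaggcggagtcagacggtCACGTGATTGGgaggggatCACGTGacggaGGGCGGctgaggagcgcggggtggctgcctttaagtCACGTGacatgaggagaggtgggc

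The DERL2/MIS12 stretch of 195 bases held 3 GGGCGG and 2 CCAAT motifs, and within the same distance of a start GGGCGG occurred in 39.7% and CCAAT in 28.5% of all 27305 tabulated promoters. In the 250 bases upstream, GGGCGG was present for 38 of the 51 members (74.5%) and for 42.3% of all promoters. CCAAT was present for 14 members (27.5%, against 33.0% of all promoters), TATAAA for 2 (3.92%, against 11.1%) and CACGTG for 2 (3.92%, against 6.49%). DVL2 was 1 of the 2 with CACGTG and held it 3 times. MPDU1 held none of the 4 motifs. These are matches of letters in a window and say nothing about binding.

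A ceiling of 302.2 intensity units, exceeded by 97 of the 3879 values of 431 olfactory receptor probes, was used to say whether a gene was above background. The 9 arrays had medians of 228.2 to 228.3 and between 16004 and 16012 probes above the ceiling, and with 3 arrays a line the precision is limited. Of 9 markers of ovarian carcinoma, 6 were above the ceiling on all 3 arrays in OHP, 6 in Pt1 and 8 in parental cells. PAX8, KRT7 and KRT19 were above it in all 3 lines, while EPCAM and CDH1 were above it on no Pt1 array. None of 3 leucocyte and 4 fibroblast markers was above it on all arrays of a line (COL1A1 and CD14 were on 2 OHP arrays), and of 3 endothelial markers PECAM1 and VWF were above it on all 9 arrays. OHP array 2 stood apart: across genes, which are not independent replicates, it correlated at 0.942 and 0.926 with the other OHP arrays and at 0.956 with parental array 2, whereas OHP arrays 1 and 3 correlated at 0.99. Results for OHP are therefore given with and without that array, and its part in the spread was not tested.

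OHP against parental cells asked which genes differ between a platinum-resistant and a sensitive line. Nearly the whole list was lower in OHP. The median difference of the 57 members was -0.73 on the log2 scale, which is 60.4% of the parental level, against -0.01 over all genes. The difference was below 0 for 53 of the 57. Among the 51 members above the ceiling on all 3 arrays of at least 1 line, it was below 0 for 49, with a median of -0.78 (58.4% of parental). The exceptions among these were PELP1, a coactivator of nuclear receptors, at 0.21 ± 0.34 (SE), and DPH1, which helps to make diphthamide on elongation factor 2, at 0.15 ± 0.17, both within their error.

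The shift appeared on each OHP array. Relative to the parental mean, the median of the 57 members was -0.65, -0.43 and -0.74 on OHP arrays 1, 2 and 3, and 0.04, 0.02 and 0.11 on the Pt1 arrays. It was -0.02, 0.04 and 0.00 on the parental arrays. The median over all genes was -0.01, 0.00 and -0.04 on the OHP arrays. Below the lowest parental array lay 48, 41 and 44 of the 57 members on OHP arrays 1, 2 and 3, or 84.2%, 71.9% and 77.2%. The same held for 32%, 36.5% and 36.0% of all genes on those arrays.

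**Figure D1:**
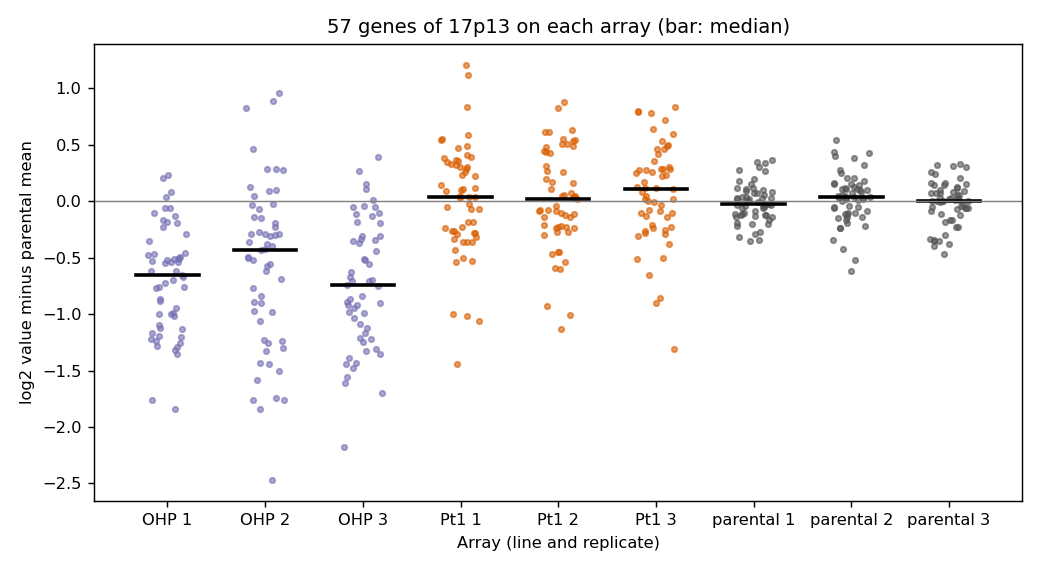
Each point is 1 of the 57 measured 17p13 genes on 1 array, drawn as its log2 value minus the mean of the 3 parental arrays, and the bar is the median of the 57. The OHP medians lie at -0.65, -0.43 and -0.74, those of Pt1 between 0.02 and 0.11, and OHP array 2 has the widest scatter.

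In the limma fit over all 18832 genes, 16 of the 57 members passed as lower in OHP (Benjamini-Hochberg adjusted p under 0.05) and 0 as higher, where 3.67% of all genes passed as lower, 1.75% as higher and 5.42% in either direction. Without OHP array 2, 35 members passed as lower and 0 as higher, among them the 16, where 16.7% of all genes passed in either direction. Without any 1 of the other 8 arrays, the count was between 6 and 9, where 3.13% to 4.39% of all genes passed in either direction. The median was -0.71 without OHP array 2. All 3 OHP arrays were below all 3 parental arrays for 36 members and above them for 0, as against 11.1% and 7.54% of all genes (18.6% in either direction). The counts come from the comparison that the list was chosen with, so they describe the members only.

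MPDU1, needed for the use of dolichol-linked mannose in glycosylation, differed most. Its log2 intensity was 9.63, 9.63 and 9.29 on the OHP arrays and 11.11, 11.39 and 11.35 on the Pt1 arrays, against 11.49, 11.49 and 11.43 on the parental arrays. All OHP arrays were below all others, and the difference from parental was -1.95 ± 0.16. A second probe of the gene gave -1.09 ± 0.40. DVL2 (dishevelled 2), which relays Wnt signals, was at 10.76, 10.80 and 11.05 in OHP and 12.11, 11.88 and 12.16 in Pt1, against 11.97, 12.07 and 12.04 in parental cells, a difference of -1.16 ± 0.15 in OHP without overlap.

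DERL2, which draws misfolded proteins out of the endoplasmic reticulum, was at 10.60, 10.23 and 10.64 in OHP and 11.60, 11.63 and 11.53 in Pt1, against 11.45, 11.63 and 11.59 in parental cells. Its divergent neighbour MIS12, a kinetochore protein, was at 10.41, 11.09 and 10.45 in OHP and 12.04, 11.92 and 12.15 in Pt1, against 11.51, 11.80 and 11.65 in parental cells. The 2 starts lie 196 bases apart, and the mean differences in OHP were -1.07 ± 0.16 and -1.01 ± 0.20. The single arrays were less alike. Relative to the parental mean, DERL2 was at -0.95, -1.33 and -0.92 on OHP arrays 1, 2 and 3, and MIS12 at -1.24, -0.57 and -1.21. DHX33, an RNA helicase of ribosomal RNA synthesis, was at 9.89, 10.26 and 9.88 in OHP and 10.81, 10.79 and 10.74 in Pt1, against 11.58, 11.30 and 10.84 in parental cells (-1.23 ± 0.21 in OHP). The parental arrays of DHX33 spread more widely than those of the other genes in this paragraph, but none reached the OHP values.

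SRR, serine racemase, which makes D-serine, was at 7.18, 6.71 and 7.51 in OHP and 8.40, 7.88 and 8.17 in Pt1, against 8.61, 8.32 and 8.47 in parental cells. In OHP it was not above background on any array, so that its fold has only a bound: the parental level was at least 1.49-fold higher. SMG6, an endonuclease of nonsense-mediated decay and the neighbour of SRR on the opposite strand, was at 7.70, 8.33 and 7.32 in OHP and 8.35, 8.55 and 8.53 in Pt1, against 8.36, 8.0 and 8.36 in parental cells. It overlapped between OHP and parental cells through OHP array 2 and did not pass, at -0.46 ± 0.25. MINK1, a Ste20-family kinase, was also at background on the 3 OHP arrays, and its parental level was at least 1.09-fold higher.

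GPS2, a subunit of the NCoR corepressor complex, was at 10.84, 11.14 and 10.37 in OHP and 11.69, 12.02 and 12.02 in Pt1, against 11.70, 12.08 and 12.14 in parental cells (-1.19 ± 0.22 in OHP). FXR2, an RNA-binding relative of the fragile X protein, was at 10.03, 10.45 and 9.70 in OHP and 11.12, 11.02 and 10.88 in Pt1, against 11.48, 11.14 and 10.79 in parental cells (-1.08 ± 0.24). Neither gene overlapped between OHP and the other lines. SRR, DHX33, DERL2, DVL2 and MPDU1 were the 5 of the 16 that passed whichever 1 of the 9 arrays was left out.

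**Figure D2:**
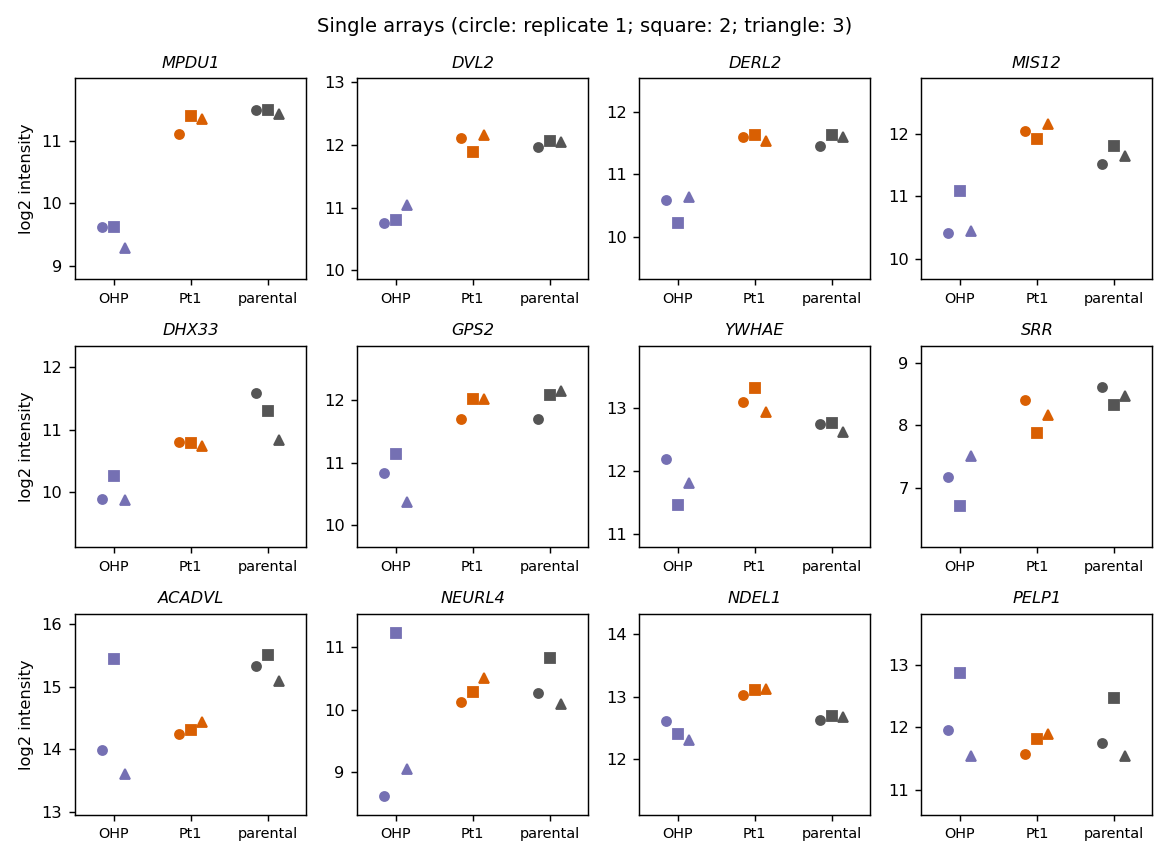
Log2 intensity of 12 of the genes on the single arrays, in panels of equal height with OHP left of Pt1 and parental. MPDU1, DVL2, DERL2 and MIS12 lie lower on all OHP arrays, whereas ACADVL and NEURL4 lie lower on OHP arrays 1 and 3 and near or above parental on OHP array 2.

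Grouped by role, every group had a median below 0 in OHP. The counts by group stand beside the 28.1% of the list and the 3.67% of all genes that passed as lower. Each group holds only 4 to 13 measured genes, and differences between groups were not tested. Of 13 measured genes of RNA processing, ribosomes and translation, 4 passed as lower, with a median of -0.69. Besides DHX33 and FXR2 these were the RNA methyltransferase METTL16 (-0.87 ± 0.21) and the nucleoporin NUP88 (-0.95 ± 0.23). PRPF8, the central protein of the spliceosome, was at 13.66, 12.69 and 13.85 in OHP and 14.29, 14.67 and 14.48 in Pt1, against 14.26, 14.05 and 14.25 in parental cells. It lay lower in OHP without overlap but did not pass (-0.79 ± 0.28). EIF5A, the hypusine-carrying translation factor, was at 14.42, 15.05 and 14.20 in OHP and 14.64, 14.72 and 14.72 in Pt1, against 14.92, 15.16 and 14.78 in parental cells, with overlap on OHP array 2. The helicase EIF4A1 was near the top of the scale on every array, at 15.92, 15.88 and 15.99 in OHP and 16.06, 16.07 and 16.03 in Pt1, against 16.00, 16.05 and 16.03 in parental cells. Its difference of -0.10 ± 0.13 was among the smallest of the list. TSR1 (-0.69 ± 0.43), MYBBP1A (-0.89 ± 0.28), GEMIN4 (-0.51 ± 0.17), DPH1 and SMG6 did not pass either. Nor did SENP3, which was above background on only 1 Pt1 array and 1 parental array. METTL16, whose neighbour PAFAH1B1 starts on the opposite strand, was at 8.95, 9.44 and 8.82 in OHP and 9.87, 9.70 and 10.11 in Pt1, against 9.72, 10.06 and 10.04 in parental cells.

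Of 4 genes of protein turnover, DERL2 and the ubiquitin-conjugating enzyme UBE2G1 (-0.97 ± 0.24) passed as lower, and the median was -0.88. The proteasome subunit PSMB6 (-0.79 ± 0.22) and NEURL4 (-0.75 ± 0.56) did not pass. Of 8 genes of mitochondria and metabolism, MPDU1 and SRR passed, and the median of -0.98 was the lowest of the 7 groups. C1QBP, a mitochondrial matrix protein, was at 13.58, 11.98 and 13.47 in OHP and 14.77, 14.97 and 14.81 in Pt1, against 14.49, 14.35 and 14.52 in parental cells, and did not pass (-1.44 ± 0.36). The OHP arrays of C1QBP differed among themselves by more than those of most members, with array 2 the lowest. TXNDC17 (-0.99 ± 0.29), the import channel subunit TIMM22 (-0.86 ± 0.24) and the enolase ENO3 (-0.60 ± 0.53) did not pass, nor did ATP2A3, at background in all lines.

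ACADVL, which begins the oxidation of very long fatty acids in mitochondria, was at 13.98, 15.44 and 13.60 in OHP and 14.25, 14.30 and 14.44 in Pt1, against 15.33, 15.51 and 15.08 in parental cells. OHP array 2 lay among the parental values and the other OHP arrays lay well below them. Its 3 probes had differences of -0.97, -1.03 and -0.41 in OHP, and the used one, with an SE of 0.40, did not pass, while the mean of the 3 passed (-0.80, limma adjusted p = 0.0105).

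Of 9 cytoskeletal, motor and division genes, 3 passed as lower (YWHAE, MIS12 and MINK1), with a median of -0.72. YWHAE was at 12.19, 11.45 and 11.81 in OHP and 13.10, 13.32 and 12.93 in Pt1, against 12.75, 12.76 and 12.62 in parental cells (-0.89 ± 0.20 in OHP). A second YWHAE probe gave 0.07 ± 0.28 in OHP, so its probes disagree, and with the mean of its probes YWHAE no longer passed in OHP (-0.41, limma adjusted p = 0.38). PAFAH1B1 was at 11.06, 9.76 and 11.30 in OHP and 12.31, 12.07 and 12.03 in Pt1, against 11.57, 10.67 and 11.34 in parental cells. The OHP and parental arrays of PAFAH1B1 overlapped, and replicate 2 was the lowest array in both lines. NDEL1, its partner in dynein control and the member nearest the centromere, was at 12.61, 12.40 and 12.31 in OHP and 13.03, 13.11 and 13.12 in Pt1, against 12.63, 12.69 and 12.67 in parental cells (-0.23 ± 0.14 in OHP). PFN1, profilin, which feeds actin monomers to filaments, was at 15.79, 15.64 and 15.71 in OHP and 16.07, 15.93 and 16.04 in Pt1, against 16.01, 15.98 and 16.08 in parental cells, near the top of the scale. Its second probe gave -1.18 ± 0.50 where the used one gave -0.31 ± 0.14. ENO3, whose start lies 2022 bases from that of PFN1 on the opposite strand, was at 9.54, 11.65 and 9.28 in OHP and 11.31, 11.38 and 11.56 in Pt1, against 10.94, 11.04 and 10.29 in parental cells. ABR (-0.52 ± 0.17), the myosin MYO1C (-0.72 ± 0.24) and the kinesin KIF1C (-0.73 ± 0.18) lay lower in OHP without overlap and did not pass.

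Of 11 genes of membrane traffic and phospholipids, 2 passed as lower, VPS53 and the scramblase PLSCR3 (-0.89 ± 0.20), with a median of -0.68. VPS53, a subunit of the GARP tether of the Golgi, was at 8.49, 9.21 and 8.20 in OHP, against 9.77, 9.87 and 9.66 in parental cells (-1.13 ± 0.24). Its second probe gave -0.22 ± 0.16. RPH3AL, an effector of RAB27 in secretion and the member nearest the telomere, was at 8.79, 8.51 and 8.57 in OHP and 9.70, 9.36 and 9.89 in Pt1, against 9.51, 8.99 and 9.72 in parental cells, lower in OHP without overlap but not past the test (-0.79 ± 0.22). CTNS, the lysosomal cystine exporter (-0.62 ± 0.16), ANKFY1 (-0.68 ± 0.18), RABEP1 (-0.67 ± 0.25) and TRAPPC1 (-0.79 ± 0.31) did not pass. The smallest differences of the group were those of GABARAP (-0.09 ± 0.24), a ubiquitin-like protein of autophagosomes, the lipid transfer protein PITPNA (-0.15 ± 0.15) and phospholipase PLD2 (-0.16 ± 0.17). SGSM2, whose start lies 1044 bases from that of TSR1 on the opposite strand, was at 12.81, 14.29 and 12.57 in OHP and 13.73, 13.73 and 13.74 in Pt1, against 13.95, 14.38 and 13.67 in parental cells. TSR1, a ribosome assembly factor, was at 10.28, 9.01 and 10.89 in OHP and 11.29, 11.26 and 11.17 in Pt1, against 11.05, 10.13 and 11.06 in parental cells. On OHP array 2 the pair parted, with SGSM2 at the height of the parental arrays and TSR1 below all of them.

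Of 6 genes of transcription and chromatin, GPS2 alone passed as lower, with a median of -0.40. POLR2A was at 13.17, 12.45 and 13.35 in OHP and 14.18, 14.17 and 14.13 in Pt1, against 13.20, 13.14 and 13.67 in parental cells. The OHP and parental arrays overlapped, and the Pt1 arrays were above both. HIC1 was at background on every array, with 6.53, 6.94 and 6.94 in OHP and 7.29, 7.14 and 7.11 in Pt1, against 7.31, 7.16 and 7.28 in parental cells, so no fold is given. MED31 was at background as well, and the helicase CHD3 (-0.73 ± 0.20) did not pass. Of 6 signalling and other genes, DVL2 and SPAG7 (-0.97 ± 0.22) passed as lower, with a median of -0.57. ZZEF1 (-0.88 ± 0.24) and NXN (-0.26 ± 0.23) did not pass, and SERPINF1 was at background. CAMKK1, above background on only 1 OHP array and 1 Pt1 array, did not pass either. With the replicate number as a block, YWHAE, METTL16, MINK1 and NUP88 no longer passed (adjusted p between 0.0514 and 0.06 in limma), and RPH3AL, MYBBP1A, C1QBP and CHD3 passed.

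**Figure D3:**
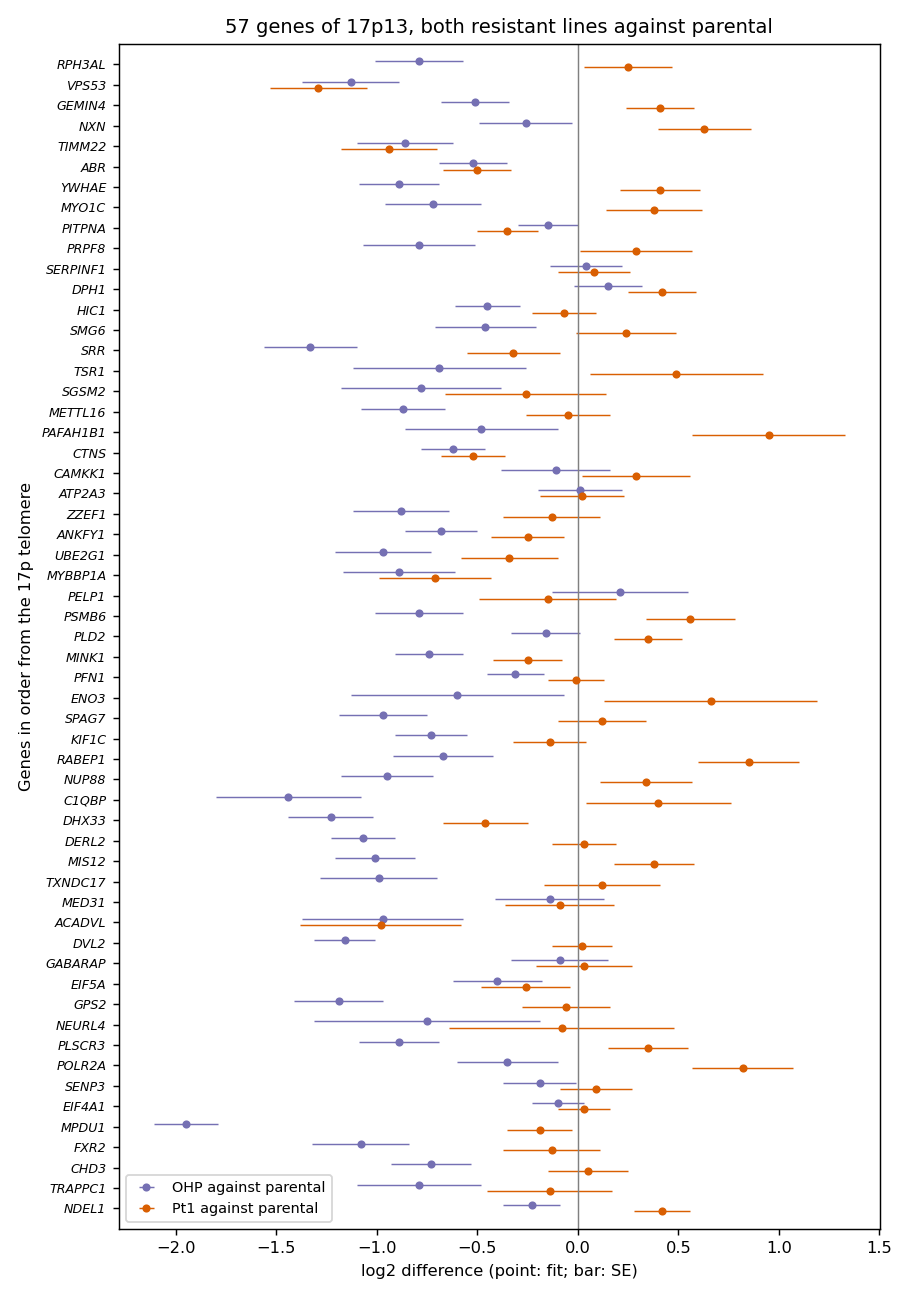
Log2 difference of each of the 57 genes in order from the telomere at the top, with the point giving the fitted difference and the bar its SE, for OHP and for Pt1 against parental. The OHP points lie to the left of 0 for 53 of the 57 genes, while the Pt1 points lie on both sides with a median of 0.03.

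Along the chromosome, each of 3 stretches of the list had a median below 0 in OHP. Among members above the ceiling, the median was -0.72 for 17 genes from RPH3AL to PAFAH1B1, -0.83 for 20 genes from CTNS to TXNDC17 and -0.77 for 14 genes from ACADVL to NDEL1. Single arrays differed in this respect. Over the 19, 23 and 15 measured members of the stretches, the medians were -0.53, -0.76 and -1.0 on OHP array 1. They were -0.52, -0.71 and -0.98 on array 3, but -0.52, -0.42 and -0.27 on array 2. The fit over the 3 arrays averages these opposite orders. In that fit, order along the chromosome and the difference correlated across the 51 members at a Pearson r of -0.16 and a Spearman rho of -0.17. This is a description only, since the points share their arrays. Of the 51, 40 lay within 0.5 of their median. Their interquartile range was 0.47, against 0.59 for the 10035 genes above the ceiling on other chromosomes, and their median SE was 0.22. The 82 other genes of 17p13 above the ceiling had an interquartile range of 0.70, and these spreads were not tested against each other.

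By brightness, the 7, 27 and 15 members above the ceiling with a mean log2 intensity under 9, from 9 to 12 and from 12 to 15 had medians of -0.73, -0.79 and -0.79 in OHP. The 2 members at 15 or more, PFN1 and EIF4A1 had -0.31 and -0.10. Of the 57 members, 19 had more than 1 probe. Of the 14 further probes above the ceiling, 13 were lower in OHP than in parental cells, with a median of -0.76, and YWHAE held the other one. In Pt1 against parental cells the same 14 probes had a median of 0.54. The used probes of all 57 members had a median of 0.03, so the 2 medians cover different sets of genes.

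The OHP arrays differed in which members were lower. Across the 51 members, the deviation from the parental mean correlated at 0.87 (Pearson r) between OHP arrays 1 and 3, but at 0.08 between arrays 1 and 2 and -0.09 between arrays 3 and 2. These are descriptions over genes read on the same arrays. On OHP array 2, 11 of the 57 members were above the parental mean, and 8 of those were below it on both other arrays. NEURL4 was at -1.55 on the mean of OHP arrays 1 and 3 and at 0.83 on array 2, and ENO3 was at -1.35 and 0.89. In the other direction, TSR1 was at -0.16 and -1.74, C1QBP at -0.93 and -2.47, and PAFAH1B1 at -0.01 and -1.43. TSR1 and PAFAH1B1 were thus below parental mainly on array 2, and NEURL4, ENO3, ACADVL and SGSM2 on arrays 1 and 3. For these genes parental array 2 lay off the parental mean in the same direction as OHP array 2. It was at -0.62 for TSR1, -0.52 for PAFAH1B1, 0.43 for NEURL4, 0.28 for ENO3, 0.21 for ACADVL and 0.38 for SGSM2. Across all genes, the deviations of OHP array 2 and parental array 2 from their line means correlated at 0.671. The interquartile range of the 51 members was 0.72 without array 2 and 1.04 on array 2 alone, beside 0.70 and 1.34 for genes on other chromosomes.

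Genes of 17p13 outside the list were also mostly below 0 in OHP. Over all 164 such genes the median was -0.29, with 119 below 0. Of the 164, 82 were above the ceiling on all 3 arrays of at least 1 line, some of them at background in OHP. Their median was -0.88, with 74 of the 82 below 0. Of these 82, 24 passed as lower (29.3%) and 1 as higher (1.22%), against 6.03% and 2.94% of all genes above the ceiling. The filter keeps genes that are bright in other lines only, such as CLDN7, at background on every OHP array. Without the filter, 25 of the 164 passed as lower (15.2%) and 1 as higher (0.61%), against 3.67% and 1.75% of all genes. The region was taken up with these comparisons known, so these counts are a description and not independent support. On OHP array 2 alone their median was -0.55. Between 17p13 and the centromere, 52 genes above the ceiling had a median of -0.03, and 475 genes of 17q had a median of 0.01.

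In consecutive windows of 20 genes above the ceiling, ordered by RefSeq (GRCh38.p14), the OHP median ran between -0.66 and -0.97 in the first 7 windows, from RPH3AL to COX10. The next 2 windows had 0.01 and 0.08, and the 23 windows wholly on 17q had -0.27 to 0.31. In the first 7 windows the median was between -0.67 and -1.08 on OHP array 1, between -0.29 and -0.91 on array 2 and between -0.71 and -1.02 on array 3. The lower level went on past the end of 17p13. The 6 genes above the ceiling from ADPRM to HS3ST3A1 had a median of -0.97 in OHP, all below 0, and 46 genes from COX10 to the centromere had a median of 0.03, with 21 below 0. This dividing point was chosen after the values were seen. MAP2K4, a kinase of the JNK pathway on the telomere side of it, was at -0.91 ± 0.18 (limma adjusted p = 0.0157). HS3ST3A1, a heparan sulfate sulfotransferase, was at background in OHP, and its parental level was at least 3.9-fold higher (limma adjusted p = 1.56e-05). COX10, an assembly factor of cytochrome oxidase and the next gene above the ceiling, was at -0.15 ± 0.21 (limma adjusted p = 0.827).

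**Figure D4:**
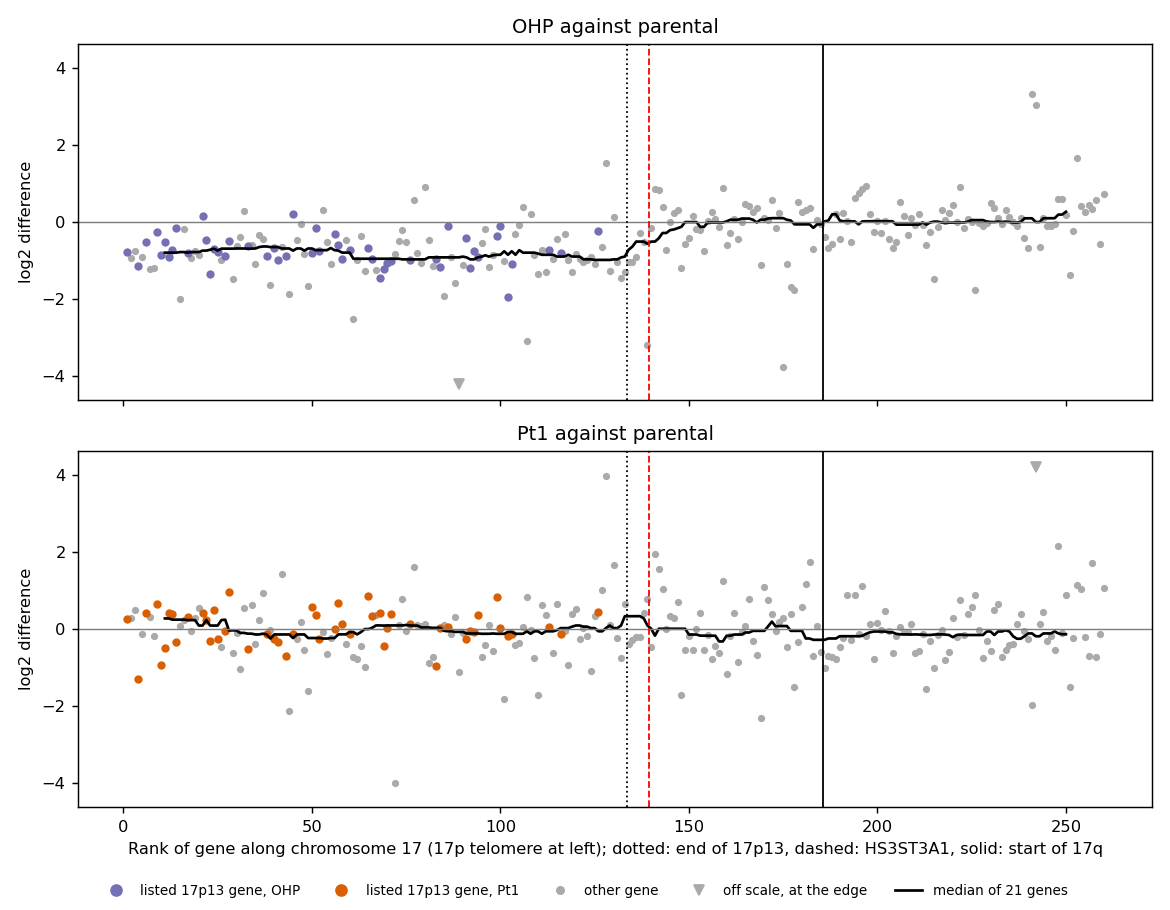
Log2 difference against parental of genes above background in order along chromosome 17, with OHP in the upper panel and Pt1 in the lower, where coloured points are genes of the list, grey points other genes and the black line a running median. In OHP the windows have medians of -0.66 to -0.97 up to the dashed line at HS3ST3A1, and in Pt1 they run between -0.19 and 0.26 up to COX10. The plot ends at MYO19, so most of 17q is not drawn. Windows wholly on 17q within the plot have medians of -0.06 to 0.31 in OHP and of -0.15 to -0.12 in Pt1. Over all 23 windows wholly on 17q, drawn or not, the medians are -0.27 to 0.31 in OHP and -0.37 to 0.46 in Pt1.

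Single genes outside the list departed from the level of their neighbours. CLDN7, a tight junction protein, was at background on the OHP arrays, and its parental level was at least 9.86-fold higher (limma adjusted p = 4.27e-07). Likewise the parental level was at least 2.8-fold higher for the ephrin EFNB3, 2.86-fold for the zinc finger gene ZFP3 and 1.77-fold for the amino acid transporter SLC43A2, with limma adjusted p of 4.84e-05, 1.52e-05 and 0.000559. PHF23, above background on every array, differed by -1.92 ± 0.23 on the log2 scale in OHP (limma adjusted p = 0.000913). SMTNL2 was at -1.87 ± 0.34 (limma adjusted p = 0.0112), above background on 1 of 3 OHP arrays. NTN1, the guidance protein netrin 1, was the only measured gene of 17p13 to pass as higher in OHP, where it was at least 1.68-fold above the parental level (limma adjusted p = 0.00395).

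In Pt1 against parental cells, which share their parental arrays with the OHP comparison, the members lay on both sides of 0. The median of the 57 members was 0.03, against -0.02 over all genes, with 26 of the 57 below 0. Of the 57, 2 passed as lower and 0 as higher, where 5.73% of all genes passed as lower, 4.16% as higher and 9.89% in either direction. Without OHP array 2, which enters the pooled spread, 6 passed as lower and 7 as higher, where 25.9% of all genes passed. Without OHP array 3 the count was 4, where 11.3% of all genes passed. Without any 1 of the Pt1 or parental arrays it was 1, where 5.53% to 7.12% of all genes passed. The 3 Pt1 arrays were below all parental arrays for 13 members and above them for 18, as against 21.3% and 18.2% of all genes (39.4% in either direction).

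The 2 members that passed, VPS53 and TIMM22, both lie near the telomere. The measured members between them, GEMIN4 (0.41 ± 0.17) and NXN (0.63 ± 0.23), were higher in Pt1 without overlap and did not pass. VPS53 was at 8.33, 8.64 and 8.45 in Pt1, against 9.77, 9.87 and 9.66 in parental cells, a difference of -1.29 ± 0.24. Its second probe was at 0.99 ± 0.16, so the direction for VPS53 in Pt1 depends on the probe. With the mean of all probes of a gene, 1 member passed as lower and 2 as higher, where 9.78% of all genes passed in either direction. VPS53, at -0.15, no longer passed (limma adjusted p = 0.593). YWHAE, at 1.25, and NDEL1, at 0.48, passed as higher (limma adjusted p of 0.00431 and 0.0394). The second YWHAE probe was at 2.08 ± 0.28 in Pt1, where the used one was at 0.41 ± 0.20. TIMM22, a channel subunit of the inner mitochondrial membrane, was at 11.28, 11.35 and 11.38 in Pt1, against 12.27, 12.28 and 12.28 in parental cells, a difference of -0.94 ± 0.24. The Pt1 and parental arrays of TIMM22 were far apart, and its OHP arrays, at 11.11, 12.05 and 11.11, spread more widely. NXN, whose start lies 17353 bases from that of TIMM22 on the opposite strand, was at 11.20, 10.35 and 11.02 in OHP and 11.71, 11.64 and 11.89 in Pt1, against 11.02, 10.95 and 11.38 in parental cells, and in Pt1 did not pass (0.63 ± 0.23).

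At the used probes, the largest positive differences in Pt1 were those of PAFAH1B1 (0.95 ± 0.38), the endosomal protein RABEP1 (0.85 ± 0.25) and POLR2A (0.82 ± 0.25), which did not pass. With the replicate number as a block, RABEP1 and POLR2A passed. ACADVL had the largest negative difference after VPS53, at -0.98 ± 0.40, with the Pt1 arrays below all parental arrays. Its other probes were at -0.78 ± 0.32 and 0.54 ± 0.56 in Pt1, so they disagree in direction, and the mean of all 3 was -0.40. The pooled spread for ACADVL and PAFAH1B1 included OHP array 2, without which both passed. By stretch, the members above the ceiling had medians of 0.25, 0.01 and -0.02 from the telomere inwards, and order along the chromosome correlated with the difference at an r of 0.08. In the windows from RPH3AL to COX10 the median ran between -0.19 and 0.26. The 82 other 17p13 genes above the ceiling on all 3 arrays of at least 1 line had a median of -0.06 in Pt1. Of these, 7 passed as lower (8.54%) and 6 as higher (7.32%), near the 9.57% and 6.74% of all genes above the ceiling.

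Single genes outside the list, at these background shares, had larger differences in Pt1. NTN1 was at least 7.62-fold above the parental level (limma adjusted p = 5.59e-06), the growth-arrest gene GAS7 at least 1.72-fold (limma adjusted p = 0.0026), and the apoptosis factor XAF1 at least 1.48-fold (limma adjusted p = 0.0359). MYH10, a nonmuscle myosin, was at 1.01 ± 0.20 in Pt1 (limma adjusted p = 0.0112). SPNS3 rose by 1.42 ± 0.20 and TAX1BP3 by 0.62 ± 0.17 (limma adjusted p of 0.00179 and 0.0452). The inflammasome sensor NLRP1 was at background in Pt1, with a parental level at least 4.53-fold higher (limma adjusted p = 0.00111), and so were SMTNL2 at least 2.59-fold, TMEM88 at least 2.03-fold, TM4SF5 at least 1.57-fold and ALOX15B at least 1.19-fold. CLDN7 fell by 1.13 ± 0.17 (limma adjusted p = 0.00287).

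OHP against Pt1 compares the 2 resistant lines with each other and shares their arrays with the comparisons above. The median of the 57 members was -0.70, against 0.01 over all genes. Of the 57, 24 passed as lower in OHP and 0 as higher, where 4.08% of all genes passed as lower, 3.52% as higher and 7.6% in either direction. Without OHP array 2 the count was 35, among them the 24, where 12.2% of all genes passed in either direction. Without any 1 of the other 8 arrays it was between 10 and 21, where 3.89% to 10.1% of all genes passed. The OHP arrays were below all Pt1 arrays for 37 members and above them for 1, PITPNA (0.20 ± 0.15), as against 13.9% and 13.9% of all genes (27.8% in either direction).

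The largest difference between the resistant lines was that of C1QBP, at -1.84 ± 0.36, followed by MPDU1 at -1.77 ± 0.16 and RABEP1 at -1.52 ± 0.25. Without OHP array 2 the order turned: ENO3 was at -2.01, MPDU1 at -1.82 and MIS12 at -1.61, with C1QBP at -1.33 and RABEP1 at -1.32. MIS12 (-1.39 ± 0.20), PSMB6 (-1.35 ± 0.22), YWHAE (-1.30 ± 0.20) and NUP88 (-1.29 ± 0.23) also fell, and their Pt1 arrays lay near or above the parental ones. VPS53, TIMM22 and ABR, whose differences from parental were below 0 in both resistant lines, differed between them by 0.16 ± 0.24, 0.08 ± 0.24 and -0.02 ± 0.17. The second VPS53 probe gave -1.20 ± 0.16, unlike the used one. The 24 members that passed included POLR2A (-1.17 ± 0.25) and NDEL1 (-0.65 ± 0.14), which were at -0.35 and -0.23 in OHP against parental and at 0.82 and 0.42 in Pt1 against parental.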

How the data were processed

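The authors deposited 1 intensity per probe and array on a linear scale for 48803 probes, with BeadStudio named without a version, per the submitters' processing notes. From the values, the deposited intensities were quantile normalized (largest spread of a rank across arrays, 1.09%), without background subtraction. A second table, with 18 per-array columns that no label pairs with a sample, is not used here. Symbols came from the platform annotation: 28098 probes had 1, 13 had several and 20692 had none.

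limma 3.58.1 in R 4.3.3 applied normexp (offset 50) and log2, took the probe with the highest mean per gene, and fitted all 9 arrays (lmFit and eBayes, residual degrees of freedom 6, prior 3.47) with 2-sided Benjamini-Hochberg adjustment over 18832 genes. Errors are SE from the fit with 3 arrays a line. Where every array of a line was not above the ceiling, the fold is a bound: the geometric mean intensity of the other line over the ceiling. Gene order came from RefSeq (GRCh38.p14), leaving CCL3L1 and CCL4L1, placed by an alternate scaffold, out of 17p. The fit was tested on simulated data.

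Members, role groups and lists were chosen with earlier results of these data known. Values on each array are given for up to 8 of the largest called differences each way, for RPH3AL, NDEL1, YWHAE, PAFAH1B1, HIC1, PRPF8, PFN1, POLR2A, EIF5A and EIF4A1, and for neighbours with divergent starts. Outside the list, up to 6 called 17p13 genes each way are named. Others were named after their values were seen. Deviations of same-numbered OHP and parental arrays correlated at 0.125, 0.671 and 0.502, weakly for replicate 1. The main fit held no pairing, so its SE and adjusted p are those of unpaired arrays. The replicate number entered as a block in an alternative fit only. Alternatives changed background correction, probe choice, filter, scaling, arrays, weights and the block. Python 3.11.15 and matplotlib 3.10.9 drew the plots.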

Additional observations from a re-analysis of the deposited data

How the results depend on the processing

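Every one of the 16 members lower in OHP, the 2 lower in Pt1 and the 24 lower in OHP than in Pt1 kept its direction in every alternative run, and the median of the list in OHP against parental stayed between -0.596 and -0.776. The counts of members that passed moved more. Percentages beside them are the share of all genes that passed in either direction. In Pt1 against parental, 2 passed (9.89%). The count was 4 without normexp (10.4%) and 3 with the mean of all probes (1 lower and 2 higher, 9.78%). It was 13 with only the 6 arrays compared (25.9%) and 13 with array weights (25.7%). With the replicate block it was 4 (11.1%), and without OHP array 2 and parental array 2 together it was 10 (21.8%). With 1 array left out it was 1 to 13 (5.53% to 25.9%). The count of 13 came where the share of all genes was highest. The median moved to 0.0969 with the mean of all probes and to 0.0805 with arrays centred on genes outside chromosome 17. In OHP against parental, 16 passed (5.42%). The count was 4 with only the 6 arrays (2.55%), 36 with array weights (13.6%) and 32 without both arrays of replicate 2 (13.4%). With 1 array left out it was 6 to 35 (3.13% to 16.7%). In OHP against Pt1, 24 passed (7.6%). The count was 12 (4.5%), 38 (17.6%) and 37 (14.4%) in the same settings. With 1 array left out it was 10 to 35 (3.89% to 12.2%). OHP array 2 gave the highest count in each of these ranges when left out. The replicate block left the counts at 16 (5.42%) and 24 (8.49%) in the OHP comparisons. Same-numbered arrays did not pair for Pt1 and parental (correlations 0.182, 0.0454 and -0.00434) or for OHP and Pt1 (0.0219, -0.0111 and -0.192). Over single members, comparisons and settings, 188 values lost their call and 171 gained one. A further 2597 stayed called, or stayed uncalled and moved by less than the SD of the arrays of the first-named line. The other 104 stayed uncalled and moved by that SD or more. The causes of these changes were not tested. The arrays' signal limits genes near background and, at the top of the scale, PFN1 and EIF4A1.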
